A study of Mus musculus with 4 samples.

Results

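The genes followed were 9 of the CaMKK2 pathway, of 31253 genes in the deposited matrices. They were taken by symbol: the kinase kinases Camkk2, Camkk1 and Stk11, the AMPK subunits Prkaa1, Prkab1 and Prkag1, and the calmodulin kinases Camk1, Camk1d and Camk4. All 9 were found. Live CD45+ cells had been sorted from brain hemispheres bearing CT2a, a mouse glioma line implanted into the brain, on day 14 after implantation. The groups were 4 WT and 4 CaMKK2 KO (CaMKK2-/-) mice, all on a C57Bl/6 background and all tumor-bearing, with no other allele or agent named. The study's mice were adult, age-matched females. The knockout was germline, so Camkk2 was targeted in every cell of the animal, tumor cells excepted. The 4 mice of each genotype carried separate hashtags and were loaded together on 1 channel of a 10x Chromium 3′ assay, so genotype and channel cannot be told apart.

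CaMKK2 is a kinase that is switched on by calcium-bound calmodulin. It phosphorylates and activates AMPK, the cell's energy sensor, and the calmodulin kinases CaMKI and CaMKIV, and CaMKK1 is its paralogue. LKB1, encoded by Stk11, is the other main activating kinase of AMPK and needs no calcium. AMPK is a trimer of an α catalytic, a β scaffold and a γ nucleotide-binding subunit, and CaMKIV is best known in T cells and neurons as a kinase of the transcription factor CREB.

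After removal of hashtag doublets, outlying cells and the highest doublet scores, 5088 WT and 5659 KO cells remained, with 1010 to 1671 cells and 11946720 to 20888414 UMIs a mouse. The 2 libraries shared 42 barcodes, of which 8 were among the kept cells. Cells were assigned to classes by scoring lists of marker genes that held none of the 9 genes, and 635 cells fell in no class. The gated classes included 3258 macrophages (TAM), 1994 classical monocytes (cMono), 472 microglia, 198 non-classical monocytes (ncMono), 463 type 2 (cDC2) and 135 type 1 (cDC1) conventional dendritic cells, 172 mature dendritic cells, 1583 T, 1343 NK and 366 B cells. Levels are given as CPM, the UMIs of a gene divided by all UMIs of the class in a mouse and scaled by 1000000. Because this unit is not per gene length and a 3′ assay reads 1 end of the transcript, levels were compared within a gene across classes and mice, never between genes. Mouse means cover mice with at least 10 cells of the class.

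The DNA before the kinase kinase genes and before Camk1 is shown because over all cells these 3 genes were the ones that stood lower in KO mice at an unadjusted p under 0.05. Each sequence runs from 250 bases before to 50 bases after the RefSeq start (GRCm38.p6), 5′ to 3′ on the strand of the gene, and capitals mark the CCAAT box (CCAAT or its reverse complement ATTGG).
Camkk2 promoter, chr5:122779361-122779660, minus strand: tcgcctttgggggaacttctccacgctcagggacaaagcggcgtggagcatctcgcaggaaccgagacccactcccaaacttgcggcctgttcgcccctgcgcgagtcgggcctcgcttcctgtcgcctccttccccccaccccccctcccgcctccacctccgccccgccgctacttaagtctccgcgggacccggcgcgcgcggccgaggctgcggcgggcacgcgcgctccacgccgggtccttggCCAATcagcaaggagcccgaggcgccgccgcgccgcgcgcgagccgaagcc
Camkk1 promoter, chr11:73018738-73019037, plus strand: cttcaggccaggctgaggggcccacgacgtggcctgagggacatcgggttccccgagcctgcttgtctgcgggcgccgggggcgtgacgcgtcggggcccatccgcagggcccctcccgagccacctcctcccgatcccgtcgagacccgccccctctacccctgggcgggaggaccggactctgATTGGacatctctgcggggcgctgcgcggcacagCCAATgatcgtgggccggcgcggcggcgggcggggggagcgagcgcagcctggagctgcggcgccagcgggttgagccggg
Camk1 promoter, chr6:113343873-113344172, minus strand: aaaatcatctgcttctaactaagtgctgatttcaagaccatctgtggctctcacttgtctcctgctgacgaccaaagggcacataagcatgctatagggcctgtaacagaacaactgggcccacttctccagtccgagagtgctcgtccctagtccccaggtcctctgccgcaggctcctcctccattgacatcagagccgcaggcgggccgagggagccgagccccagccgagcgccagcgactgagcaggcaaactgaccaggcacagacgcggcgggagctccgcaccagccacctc
The Camkk2 window held 42 CpG dinucleotides and the Camkk1 window 36, against 15 in the Camk1 window and a median of 7 over 32851 promoters of the same length. A CCAAT box was found once in the Camkk2 window and 2 times in the Camkk1 window, and in 37.4% of all promoters. Neither the string GAGGAA nor the cyclic AMP response element TGACGTCA was present on either strand in these 3 windows. Of all promoters, 28.3% held the former and 1.79% the latter. GAGGAA is a longer form of the ETS core GGAA, which was not searched for. These matches describe letters only.

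In the annotation of the files' mm10 build (GENCODE M21), Camkk2 spans chr5:122731170-122779409 on the minus strand and Camkk1 chr11:73019008-73042073 on the plus strand. Stk11 lies at chr10:80115803-80130682 (plus), Prkaa1 at chr15:5143861-5181899 (plus), Prkab1 at chr5:116013586-116024508 (minus) and Prkag1 at chr15:98812797-98831521 (minus). Camk1 lies at chr6:113334124-113343984 (minus) and Camk1d at chr2:5293457-5714515 (minus). Camkk2 and Prkab1 are 6.71 Mb apart on 1 chromosome. None of these 8 genes overlapped another listed gene on its own strand.

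Among the 10 classes with at least 10 cells in 3 or more WT mice, T cells taken whole, Camkk2 was highest in the monocytes and lowest in T cells. In WT ncMono, Camkk2 reached 140, 97.1 and 157 CPM in the 3 mice with enough cells, a mean of 131 ± 30.9 (SD, n = 3). In WT cMono the 4 mice had 61.0, 54.5, 80.0 and 64.8 CPM, and in microglia 48.8, 44.0, 50.6 and 53.4 CPM. No ncMono value came down to the cMono range, and no cMono value to the microglia range.

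Lower levels of Camkk2 overlapped one another between neighbouring classes. B cells had 37.7 ± 27.4 CPM (SD, n = 4) in WT mice, with 1 mouse at 0, and TAM had 26.2 ± 2.46 (SD, n = 4). Mature dendritic cells (23.6 ± 14.7, SD, n = 3), cDC2 (23.3 ± 11.2, SD, n = 4) and cDC1 (22.6 ± 9.57, SD, n = 4) could not be ordered by their mice. NK cells had 16.5 ± 3.64 CPM and T cells 10.4 ± 3.15 (SD, n = 4 each), and the mean in ncMono was 12.6 times that in T cells. In pDC-gated cells no Camkk2 UMI was seen in either genotype, where the exact 95% Poisson interval allowed up to 10.5 CPM in WT and 7.596 CPM in KO cells.

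Each class with at least 10 cells in all 4 WT mice was then compared with the mean of the other 7 such classes by edgeR's quasi-likelihood test, with the mouse as a block and Benjamini-Hochberg adjustment over 10200 genes. Among all genes, the share past an adjusted p of 0.05 was 53.7% for microglia, 50.9% for TAM, 62.1% for cMono, 29.9% for cDC1, 34.4% for cDC2, 50.9% for T cells, 50.7% for NK cells and 31.7% for B cells. Of 72 gene-by-class tests on the 9 genes, 29 passed, 17 higher and 12 lower, made up of 4 in microglia, 3 in TAM, 4 in cMono, 3 in cDC1, 2 in cDC2, 6 in T cells, 6 in NK cells and 1 in B cells. Set against all genes, the share of the 9 that passed was above in cDC1, T and NK cells and below in the other 5 classes. With only 9 genes a class, these gaps amount to few genes and are not read as a trait of the 9. Camkk2 was higher in cMono by 1.43 ± 0.14 log2 units (SE, adjusted p = 1.06e-10) and in microglia by 0.99 ± 0.17 (SE, adjusted p = 5.56e-06). It was lower in T cells by a log2 difference of -1.80 (SE 0.21, adjusted p = 9.83e-09) and in NK cells of -0.82 (SE 0.19, adjusted p = 0.000373). The microglia, T-cell and NK-cell calls of Camkk2 were lost when limma weighted all cells equally (adjusted p = 0.165, 0.149 and 0.309), and the cMono call was kept. In B cells Camkk2 was at 0.79 (SE 0.33, adjusted p = 0.0679), which passed in 3 alternatives (adjusted p from 0.0333 to 0.0484). Without WT M3 it was lower in cDC2 (adjusted p = 0.0455). The ncMono class had too few cells in 1 WT mouse to enter this test.

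**Figure D1:**
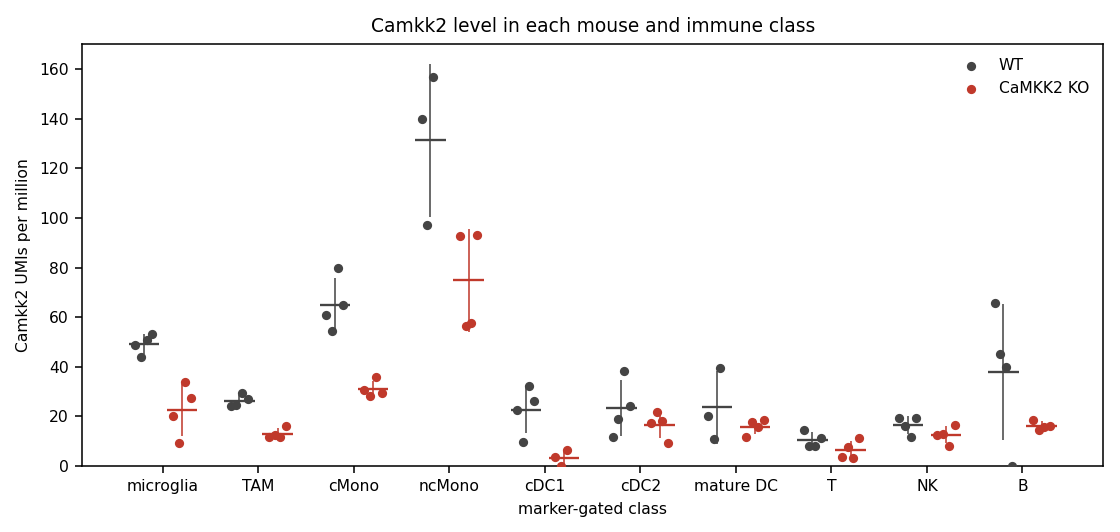
Camkk2 CPM (vertical axis) in 10 marker-gated classes (horizontal axis), with 1 point for each WT (grey) or CaMKK2 KO (red) mouse that had at least 10 cells of the class, the mean as a horizontal line and the SD as a vertical one. WT means ran from 10.4 in T cells to 131 in ncMono, and the points of the genotypes were separate in microglia, TAM, cMono, ncMono and cDC1.

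The paralogue Camkk1 had another pattern, with its highest levels in dendritic cells. The WT mice had 47.9, 38.8, 36.5 and 33.7 CPM of Camkk1 in cDC2, and 19.8, 31.7, 53.4 and 5.54 CPM in cDC1. Microglia (8.66 ± 3.42, SD, n = 4) and TAM (8.27 ± 0.872, SD, n = 4) followed, with TAM above the range of NK cells (3.42 ± 1.37, SD, n = 4). Camkk1 was higher in cDC2 by 2.78 ± 0.23 log2 units (SE, adjusted p = 4.29e-12) and in cDC1 by 2.02 ± 0.37 (SE, adjusted p = 4.35e-05). The same test put it lower in cMono (log2 difference -1.24, SE 0.41), the class in which Camkk2 was highest of those tested. That call and those in T and NK cells were lost in some alternatives, with 1 WT mouse left out among them. No Camkk1 UMI was seen in WT mature dendritic cells or WT ncMono, with upper 95% Poisson limits of 5.29 and 7.83 CPM, whereas cDC1 and cDC2 had Camkk1 UMIs in every WT mouse.

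Stk11, the gene of LKB1, differed little between classes. Its WT means lay between 39.1 CPM in cDC1 and 59.9 CPM in mature dendritic cells, a ratio of 1.53, and the mice of each class overlapped with those of the next. No class passed the between-class edgeR test for Stk11. In 2 alternatives, clusters in place of gates and without WT M1, it was lower in cDC1 (adjusted p from 0.0268 to 0.0298).

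The AMPK subunits were detected in all of these classes. Prkaa1, the α1 catalytic subunit, was highest in cMono at 17.2, 20.7, 23.4 and 26.5 CPM, and this was its only class to pass in the edgeR test (higher by 0.64 ± 0.17 log2 units, SE, adjusted p = 0.00183). That call was lost when limma weighted all cells equally (adjusted p = 0.150), and in some alternatives Prkaa1 was lower in B cells or cDC2. Prkab1, the β1 scaffold, had 30.5 ± 3.14 CPM in microglia (SD, n = 4) and 25.98 ± 4.93 in NK cells, against 6.41 ± 1.33 in cDC1. It was higher in microglia by 1.03 ± 0.18 log2 units (SE, adjusted p = 6.44e-06), in NK cells by 0.79 ± 0.16 and in TAM by 0.40 ± 0.13. In cDC1 its log2 difference was -1.38 (SE 0.34, adjusted p = 0.00192) and in cDC2 -0.76 (SE 0.21). When limma weighted all cells equally, the microglia (adjusted p = 0.0641), TAM and cDC2 calls of Prkab1 were lost, the last 2 also in other alternatives. Prkag1, the γ1 regulatory subunit, passed in T cells alone, higher by 0.48 ± 0.16 (SE, adjusted p = 0.0104). That call was lost with limma and without WT M3 (adjusted p from 0.0535 to 0.0895). All neighbouring classes of these 3 subunits overlapped in their WT mice, while for Prkab1 microglia and cDC1, which are not neighbours in that order, did not.

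The substrate kinases of the CaMKKs differed more between classes. Camk1, which encodes CaMKIα, had 235, 284, 226 and 300 CPM in WT microglia and 141, 118, 161 and 155 CPM in WT TAM. It then dropped to 22.9, 38.4, 29.1 and 56.2 CPM in cMono, 19.1 ± 4.39 in cDC2 and 3.30 ± 2.29 in T cells (SD, n = 4). Microglia, TAM, cMono and cDC2 did not overlap with one another. Camk1 was higher in microglia by 4.03 ± 0.13 log2 units (SE, adjusted p = 1.53e-23), in TAM by 3.04 ± 0.13 and in cMono by 0.79 ± 0.19, and lower in T, NK and B cells. Its cMono and NK calls were lost when limma weighted all cells equally (adjusted p = 0.116 and 0.125), and its B-cell call without WT M2 (adjusted p = 0.0594).

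Camk1d, which encodes CaMKIδ, peaked in cDC1 with 147, 209, 134 and 141 CPM in the WT mice. Microglia had 105 ± 30.8 and TAM 63.8 ± 11.3 CPM (SD, n = 4), against 11.9 ± 1.95 in NK cells and 3.76 ± 3.61 (SD, n = 3) in mature dendritic cells. Its level was higher in cDC1 by 2.03 ± 0.14 log2 units (SE, adjusted p = 1.90e-14), in microglia by 1.38 ± 0.12 and in TAM by 0.53 ± 0.11, and lower in T cells (-1.37, SE 0.16) and NK cells (-2.24, SE 0.17). The TAM and T-cell calls of Camk1d were lost when limma weighted all cells equally (adjusted p = 0.433 and 0.13). Mature dendritic cells, which were not part of the test, did not overlap with cDC1 in either Camkk1 or Camk1d.

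Camk4 was highest in T cells, whose mice did not overlap with any other class. The WT mice had 29.2, 51.7, 49.7 and 55.9 CPM in T cells, and 14.6, 3.83, 1.37 and 5.68 CPM in NK cells. It was higher in T cells by 7.77 ± 0.39 log2 units (SE, adjusted p = 5.95e-15), a fitted value that leans on classes with almost no UMIs. Camk4 had no UMI in WT ncMono, cDC1, cDC2, mature dendritic or B cells, and 2 UMIs over all 4 mice in each of TAM and cMono. NK-gated cells also carried T-cell marker UMIs (673 to 840 CPM summed over 8 markers in WT mice), and the part these play in the NK value was not tested.

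**Figure D2:**
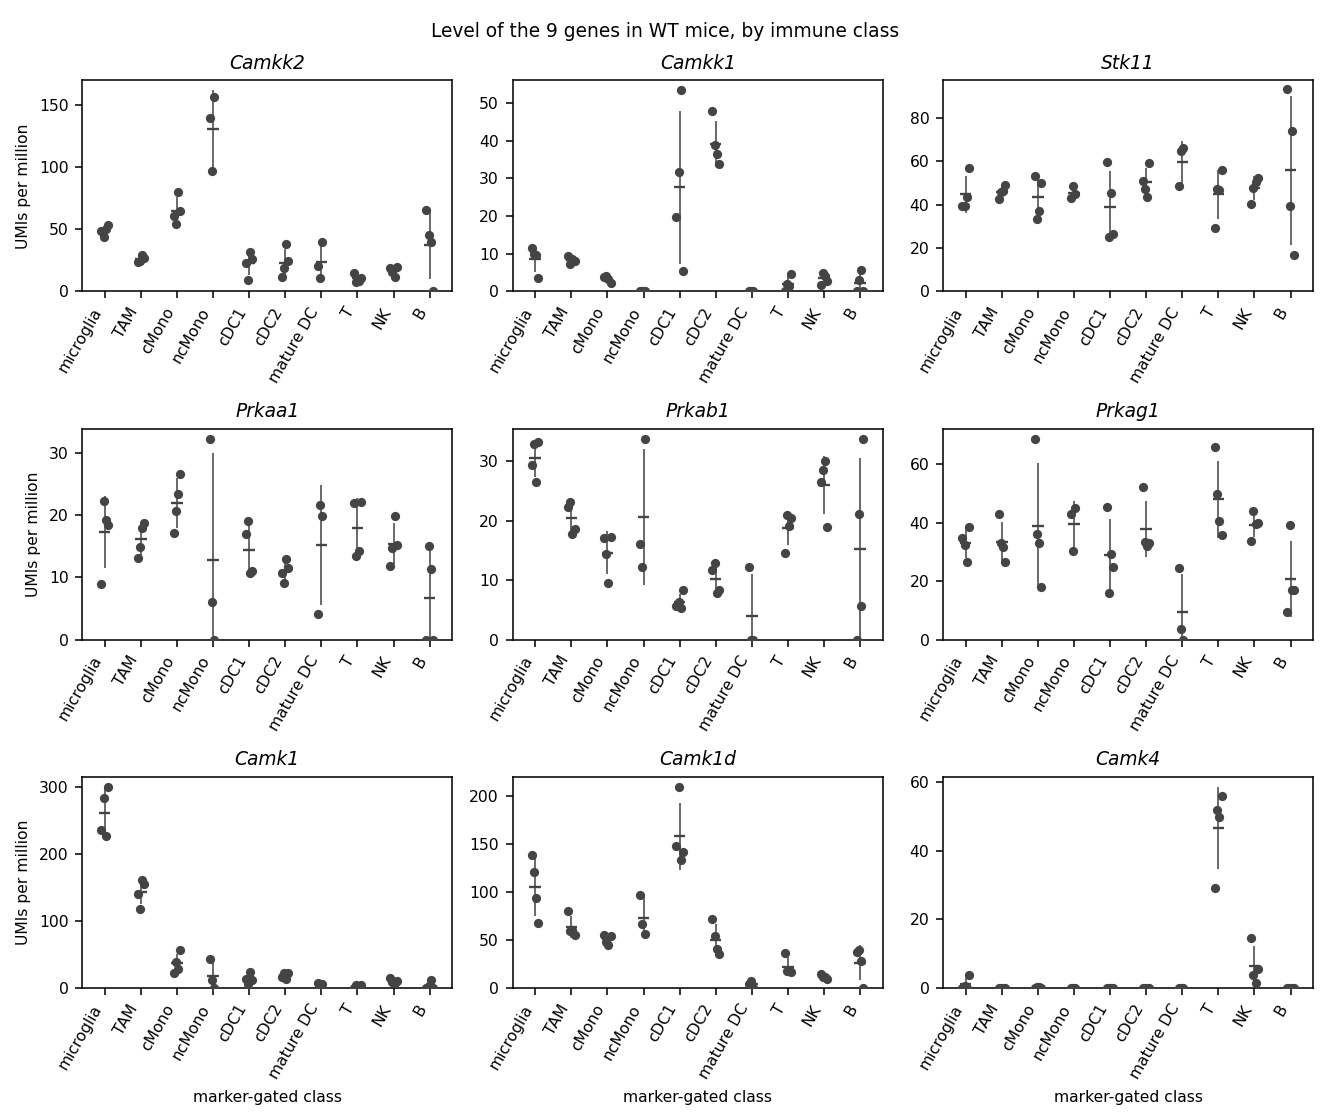
CPM of each of the 9 genes (vertical axes, linear and different for each panel) in the WT mice, by marker-gated class (horizontal axes), with 1 point a mouse, the mean as a horizontal line and the SD as a vertical one. Stk11 and the 3 AMPK subunits were detected in all classes, with means of Prkab1 from 30.5 in microglia to 6.41 in cDC1 and 4.06 in mature dendritic cells. Camk1 was highest in microglia and TAM, Camkk1 in cDC2 and cDC1, Camk1d in cDC1 and microglia, and Camk4 in T cells.

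The genes with the most similar WT profiles were sought among 10000 genes by Pearson's r of the mean log2(CPM + 1) over 10 classes, which come from the same 4 mice and libraries. For Camkk2 they were Ceacam1 (r = 0.945), Gmip (0.925) and Sat1 (0.915). For Camk1 they were Man1c1 (0.965), Itm2b (0.963) and Ntpcr (0.958), and for Camk1d Ciao3 (0.949), Hps3 (0.947) and Sgsm3 (0.939). Camk4 was nearest to Lat (0.981), an adaptor of T-cell receptor signalling, Wdr95 (0.975) and Gzmk (0.973), a granzyme of T cells. These correlations are descriptions of 10 points each.

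The genotypes were compared next, beginning with the targeted gene. Over all cells, Camkk2 was at 27.9, 29.2, 38.1 and 28.0 CPM in the WT mice and at 14.8, 18.2, 13.3 and 22.7 CPM in the KO mice. Every KO mouse lay below every WT mouse, and the KO mean was 56.0% of the WT mean. The log2 difference was -0.84 (SE 0.18), with an adjusted p of 0.0640 by edgeR over 11314 genes and a two-sided exact permutation p of 0.0286, the smallest that 4 mice against 4 allow. The 3′ UMIs left in KO cells do not check the deletion, since the removed part of the gene was not given in the sources used here and a 3′ tag may lie outside it.

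Of all genes, 1.60% passed over all cells, and 0 of the 9 did by edgeR. At an unadjusted p under 0.05, 3 of the 9 stood below WT, namely Camkk2, Camkk1 and Camk1, where 17.1% of all genes reached that p in either direction. DESeq2 called 2 of the 9, Camkk1 and Camkk2, among 659 of 11314 genes that it called over all cells. A sum over all cells mixes classes whose shares of the pooled cells differed between the genotypes. The cMono gate held 667 WT (46 to 317 a mouse) and 1327 KO cells (170 to 480 a mouse), so the mice overlapped. The cDC2 gate held 312 WT (65 to 106 a mouse) and 151 KO cells (14 to 57 a mouse). Over all cells, a smaller share of a class and less RNA per cell cannot be told apart. The classes were therefore tested one by one.

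Camkk2 fell in TAM and in cMono. In TAM the WT mice had 24.0, 24.5, 29.3 and 27.0 CPM and the KO mice 11.5, 12.6, 11.6 and 16.0 CPM, with no overlap. The mean fell from 26.2 ± 2.46 to 12.9 ± 2.12 CPM (SD, n = 4 each), a log2 difference of -1.04 (SE 0.13, adjusted p = 0.00323). In cMono the KO mice had 30.4, 28.3, 35.9 and 29.6 CPM, all under the lowest WT mouse at 54.5, with a log2 difference of -1.10 (SE 0.15, adjusted p = 0.00585). The exact permutation p was 0.0286 in both classes.

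These were the only 2 of 38 gene-by-class tests to pass, with lymphocytes as a whole counted apart. They made up 1 of 8 genes in TAM, where 2.22% of all genes passed, and 1 of 7 in cMono, where 2.16% did. None passed of 4 genes tested in microglia (1.14% of all genes), 1 in cDC1 (1.27%), 4 in cDC2 (1.48%), 6 in T cells (1.76%), 3 in CD8 T cells (1.54%), 2 in CD4 T cells (2.56%), 3 in NK cells (2.61%) and 8 in all T, NK and B cells as 1 class of lymphocytes (1.29%). A gene entered a test with at least 200 UMIs over the mice, and none of the 9 reached this in ncMono, mature dendritic or B cells. At an unadjusted p under 0.05, there were 9 of the 38 tests, 7 lower and 2 higher in KO mice, beside 18.0% of all gene-by-class tests in these 9 classes. The share of all genes whose genotypes did not overlap was not counted, so non-overlap of the mice is given as description only.

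The gated classes were not alike in the 2 genotypes, with marker lists that moved in both directions. Within TAM, the 8 macrophage markers summed to 18201 to 19104 CPM in WT and 13283 to 17923 CPM in KO mice, and the 8 classical monocyte markers to 1084 to 1766 and 1792 to 5319 CPM, with every marker detected. The 9 microglia markers summed to 345 to 460 CPM in WT TAM and 174 to 292 CPM in KO TAM, without overlap. Within cMono, the 8 non-classical monocyte markers summed to 419 to 536 CPM in WT and 199 to 284 CPM in KO mice. WT levels of Camkk2 were higher in cMono and microglia than in TAM and higher still in ncMono, and the part of these marker differences in the Camkk2 values was not tested.

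In the remaining classes Camkk2 did not pass or was not tested. The genotypes overlapped in cDC2, at 11.7 to 38.2 CPM in WT and 9.33 to 21.8 in KO mice. They also overlapped in mature dendritic cells (10.8 to 39.6 in WT, 11.7 to 18.4 in KO) and B cells (0 to 65.6 in WT, 14.5 to 18.5 in KO). The B-cell overlap came from WT M4 alone, at 0 UMIs, with the other WT mice at 65.6, 45.3 and 39.9 CPM. Pooled B cells gave 29 UMIs in WT mice (43.1 CPM, exact 95% Poisson interval 28.9 to 61.9) and 18 in KO mice (16.1 CPM, 9.52 to 25.4). These intervals cover counting error only. Microglia had 20.1, 9.22, 33.7 and 27.6 CPM in KO mice, all below the lowest WT value of 44.0, with a log2 difference of -1.02 (SE 0.27, adjusted p = 0.0887). The ncMono values of KO mice were 92.7, 56.4, 57.5 and 93.2 CPM, and the highest of them was under the lowest WT mouse at 97.1. In cDC1, 42 UMIs in WT mice (23.8 CPM pooled, exact 95% Poisson interval 17.1 to 32.2) stood against 4 in KO mice (3.42 CPM, 0.931 to 8.75), an interval that covers counting error only.

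Summed as 1 class, lymphocytes had less Camkk2 than TAM in WT mice, and their genotypes overlapped. WT means were 10.4 CPM in T and 16.5 CPM in NK cells, but 37.7 CPM in B cells, above the 26.2 CPM of TAM. The mix differed by mouse, with 36 to 225 T, 88 to 178 NK and 14 to 87 B cells in a WT mouse. Its part in this sum and in the interaction below was not tested. T, NK and B cells together gave 21.7, 14.4, 10.8 and 14.8 CPM in WT and 7.65, 10.3, 5.80 and 13.8 CPM in KO mice, a log2 difference of -0.74 (SE 0.28, adjusted p = 0.223). The difference between the genotype effects in TAM and in lymphocytes was tested itself and was -0.29 log2 units (SE 0.28, adjusted p = 0.631). Of all genes 0.566% passed this interaction test, and 0 of the 9 did, with 2 of the 9, Prkag1 and Camk1, at an unadjusted p under 0.05. The 4 mice a group therefore did not show that the Camkk2 difference in TAM was unlike that in lymphocytes, nor that it was alike.

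**Figure D3:**
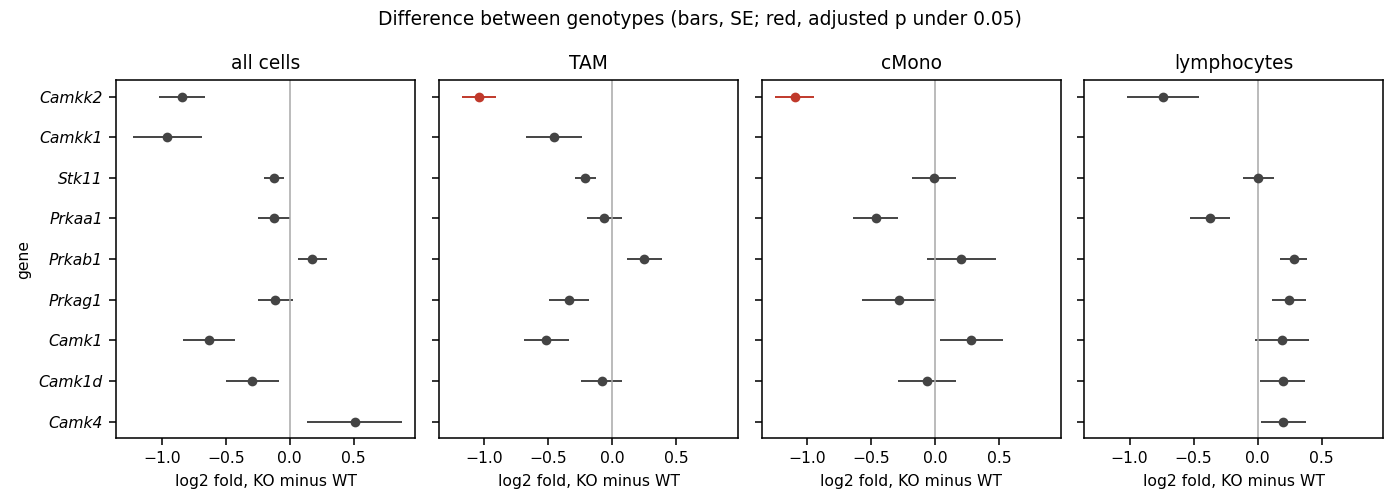
Log2 difference between CaMKK2 KO and WT mice (horizontal axes, bars are SE) of each of the 9 genes (vertical axis) over all cells, in TAM, in cMono and in T, NK and B cells together, with red marking an adjusted p under 0.05. Camkk2 at -1.04 in TAM and -1.10 in cMono were the only values to pass, and genes under 200 UMIs in a class are not drawn.

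The paralogue Camkk1 stood lower in KO mice over all cells without passing. The WT mice had 11.5, 9.01, 8.74 and 9.05 CPM and the KO mice 6.79, 3.69, 6.22 and 2.85 CPM, with no overlap (log2 difference -0.96, SE 0.27, adjusted p = 0.141). In cDC2, where its level was highest, KO mice had 27.7, 10.9, 16.4 and 9.33 CPM against 33.7 to 47.9 CPM in WT mice. That log2 difference was -1.15 (SE 0.28, adjusted p = 0.0781), with 202 UMIs behind the WT and 48 behind the KO values. It passed with DESeq2, with no filter on low counts and without KO M1 (adjusted p from 0.0122 to 0.0335), and over all 14 alternatives its adjusted p ran from 0.0122 to 0.210. In TAM the value was -0.46 (SE 0.22, adjusted p = 0.257).

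Stk11 and the AMPK subunits gave differences in both directions, none of which passed. Stk11 in TAM was at 42.5, 45.8, 46.2 and 49.3 CPM in WT and 40.6, 38.4, 41.8 and 37.8 CPM in KO mice, which did not overlap (log2 difference -0.21, SE 0.08, adjusted p = 0.176). Prkaa1 was at -0.46 (SE 0.17, adjusted p = 0.217) in cMono and at -0.37 (SE 0.15, adjusted p = 0.262) in lymphocytes. Prkab1 in NK cells was at 26.5, 28.5, 30.1 and 18.9 CPM in WT and 38.2, 37.9, 31.2 and 40.8 CPM in KO mice, again without overlap, with a log2 difference of 0.49 (SE 0.18, adjusted p = 0.157). Prkag1 was at -0.34 (SE 0.15, adjusted p = 0.237; -0.19 without WT M1) in TAM and 0.40 (SE 0.19, adjusted p = 0.265) in NK cells. The genotypes also did not overlap for Prkab1 in lymphocytes, which was higher in KO mice (0.28, SE 0.11, adjusted p = 0.219). The same held for Prkag1 in microglia and Stk11 in ncMono, both lower in KO mice and not tested there. In the other classes with enough mice these 4 genes overlapped.

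Among the calmodulin kinases, Camk1 over all cells was at 120, 78.2, 78.2 and 92.4 CPM in WT and 72.0, 45.2, 72.4 and 48.0 CPM in KO mice. The groups did not overlap, and the log2 difference of -0.63 (SE 0.20, adjusted p = 0.177) did not pass. Within TAM the KO mice had 115, 77.6, 129 and 79.2 CPM against 118 to 161 CPM in WT mice, so the groups overlapped (-0.51, SE 0.18, adjusted p = 0.144). The microglia markers of the TAM gate, at 345 to 460 CPM in WT and 174 to 292 CPM in KO mice, moved the same way, and their part in this value was not tested. In microglia, where Camk1 was highest, the means were 261 ± 36.0 and 245 ± 34.3 CPM (SD, n = 4 each), and in cMono the log2 difference was 0.28 (SE 0.25, adjusted p = 0.614). That cMono value ran from 0.13 without KO M3 to 0.53 without WT M4, and it was 0.89 and passed with clusters in place of gates (adjusted p = 0.0288). In that setting 659 of 7560 genes passed in cMono, against 154 of 7135 with gates. Macrophage markers, which move with the share of TAM, ranged from 8643 to 15770 CPM over all cells of WT mice and from 5018 to 8776 in KO mice. Their part in the Camk1 value over all cells was not tested. In CD4 T cells, where Camk1 was too low to test, WT mice (14.1 to 16.3 CPM, n = 3) lay above KO mice (0 to 8.09 CPM), on 11 and 12 UMIs.

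Camk1d and Camk4 did not pass in any class. Camk1d was at -0.08 (SE 0.16, adjusted p = 0.796) in TAM and -0.10 (SE 0.26, adjusted p = 0.939) in cDC1, its highest class. Camk4 in T cells was at 54.7, 72.0, 50.03 and 56.6 CPM in KO mice against 29.2 to 55.9 CPM in WT mice (log2 difference 0.21, SE 0.16, adjusted p = 0.535). The median log2 difference over the 8 genes tested in TAM was -0.27, beside -0.08 over all genes tested there. The 8 include the targeted Camkk2 (-1.04), the only one of them to pass.

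Other genes of the pathway were counted from 9 lists with 64 genes, of which 52 were tested over all cells and 49 in TAM. Over all cells 0 of the 52 passed by edgeR (1.60% of all genes), with 10 at an unadjusted p under 0.05 (17.1% of all genes). In TAM 1 of the 49 passed (2.22% of all genes), with 11 at an unadjusted p under 0.05 (21.5% of all genes). These counts were near the shares over all genes. The gene that passed was Camk2n1, listed among the other calmodulin kinases and encoding an inhibitor of CaMKII. Its WT mice had 25.2, 20.2, 14.3 and 19.1 CPM and its KO mice 4.88, 2.13, 10.6 and 3.67 CPM, which did not overlap (log2 difference -1.81, SE 0.39, adjusted p = 0.0471). The Camk2n1 call was lost in 9 of 17 alternatives, 7 of them with 1 mouse left out (adjusted p from 0.0527 to 0.117), and its direction was kept.

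By list, the counts tested in TAM were 2 of 4 other AMPK subunits, 4 of 4 LKB1 complex partners, 3 of 9 other calmodulin kinases, 3 of 3 calmodulin genes and 8 of 8 calcineurin and NFAT genes. They were 9 of 12 AMPK-related kinases, 11 of 14 AMPK substrates, 7 of 8 CREB family members and coactivators and 2 of 2 other upstream kinases of AMPK. The median log2 differences of these lists ran from -0.24 for the other calmodulin kinases to 0.06 for the calmodulin genes, beside -0.08 over all genes tested in TAM. None of the lists other than the calmodulin kinases held a gene that passed.

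Genes that start within 500 kb of the Camkk2 gene were taken as its neighbours, 30 in the files, of which 23 were tested over all cells and 16 in TAM. Over all cells 19 of 23 were below 0 (57.9% of all genes), with a median log2 difference of -0.26 beside -0.04 over all genes. By edgeR 0 passed (1.60% of all genes), with 9 at an unadjusted p under 0.05 (17.1% of all genes). Of these 9, Ift81 (log2 difference 0.54) and A930024E05Rik (0.65) stood higher in KO mice and the rest lower. In TAM 15 of 16 were below 0 (64.0% of all genes), with a median of -0.25 beside -0.08 over all genes, and 1 passed (2.22% of all genes). This was Pptc7, a mitochondrial phosphatase gene whose start lies 495 kb from that of Camkk2. Pptc7 had 24.0, 25.3, 26.2 and 26.2 CPM in WT TAM and 19.7, 18.1, 17.9 and 19.7 CPM in KO TAM, without overlap (log2 difference -0.44, SE 0.09, adjusted p = 0.0415). The Pptc7 call was lost in 14 of 17 alternatives, each of the 8 left-out mice included (adjusted p from 0.0567 to 0.124), with the direction kept. In cMono 1 of 14 passed (2.16% of all genes), Rnf34, a ubiquitin ligase gene 70.6 kb from Camkk2, which was named after its value was seen (log2 difference -1.05, SE 0.18, adjusted p = 0.0206, lost in 5 of 17 alternatives).

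**Figure D4:**
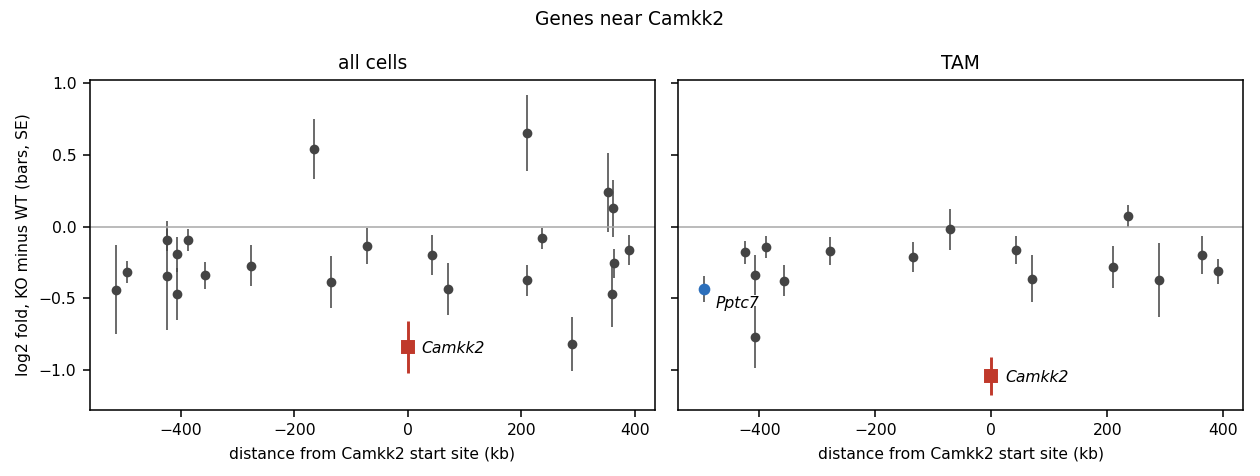
Log2 difference between CaMKK2 KO and WT mice (vertical axis, bars are SE) of genes near Camkk2, by the distance of their start from that of Camkk2 in kb (horizontal axis), over all cells and in TAM. Camkk2 (red square) was at -0.84 and -1.04, 19 of 23 neighbours over all cells and 15 of 16 in TAM lay below 0, and Pptc7 (blue) was the only neighbour to pass in TAM.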

How the data were processed

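The authors made the deposited UMI counts with Cell Ranger 4.0.0 (bcl2fastq 2.20 and STAR 2.7.5c are named in the submitters' processing notes) against mm10, 1 matrix for each genotype, gene expression and hashtags together. The count is the number of UMIs, raw and not normalized. Cells were split by mouse with HTODemux (Seurat 5.3.0), cells beyond 3 median absolute deviations were removed with scuttle 1.12.0, and of the 222 WT and 169 KO cells of highest Scrublet score (scanpy 1.11.5), marked as likely doublets within a mouse, the 183 and 137 not already removed were taken out. A cell joined the class whose marker list scored at least 0.3 and led by 0.05, and microglia needed 0.5. Of 10112 gated cells, 89.22% lay in a Leiden cluster of the same name, and 395 of 1994 cMono and 310 of 3258 TAM lay within 0.1 of the cut. The UMIs of each class were added up within a mouse, and edgeR 4.0.16 was run on these sums (total UMIs as library size, at least 200 UMIs, 10 cells and 3 mice a genotype), with DESeq2 1.42.0 and limma 3.58.1 as alternatives. The tests were tried on simulated data. The 9 genes, the lists and the tests were chosen with earlier results of these data known. Named beside the 9 genes were list members and neighbours of Camkk2 that passed in TAM or over all cells, and the 3 genes most like Camkk2, Camk1, Camk1d and Camk4. Hashtagged mice are separate animals, but all mice of a genotype share a channel. The hashtag libraries' own samples were not used.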

Additional observations from a re-analysis of the deposited data

Results flagged for a closer look

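In 6 groups of 4 mice, 1 mouse stood apart from the other 3 by Dixon's test at the 95% level, of 91 groups checked, a flag that chance gives to about 1 group in 20. Camkk2 over all cells was at 38.1 CPM in WT M3 while the remaining WT mice lay at 27.9 to 29.2, the same mouse that had the highest WT value in cMono. Camkk1 over all cells was at 11.5 CPM in WT M1 against 8.74 to 9.05. WT M1 also stood apart for Prkag1 in cDC2 (52.1 CPM against 32.1 to 33.4), for Camk1d in T cells (36.5 CPM against 16.6 to 19.1) and for Camk4 in CD8 T cells (25.9 CPM against 53.2 to 56.3). This mouse had the fewest T cells of the WT mice, 36, and its Camk4 value in CD8 T cells rested on 4 UMIs. Prkab1 in T cells was at 25.1 CPM in CaMKK2 KO M4 against 20.4 to 20.9. No interaction between genotype and cell type passed for any of the 9 genes.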

How the results depend on the processing

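Camkk2 over all cells kept its direction in all 15 alternatives and passed in 3 of them, at -0.79 (DESeq2, adjusted p = 0.0147), -0.84 (no filter on low counts, adjusted p = 0.0480) and -0.997 (without KO M4, adjusted p = 0.0343), with -0.723 to -0.997 over the mice left out. The count of the 9 genes called over all cells, 0, became 2 with DESeq2 and 1 with no filter, and ran from 0 to 1 over the mice left out. The count called per class, 2, became 6 with no filter, which tests more genes (Camkk2 in microglia and cDC1, Camkk1 in cDC2 and Camk4 in NK cells were added), and ran from 2 to 4 over the mice left out, with 4 without KO M3. With no filter 391 of 14959 genes passed in microglia and 394 of 14361 in cDC2, against 54 of 4749 and 69 of 4675 with the filter. Camkk2 in cDC1 had 42 WT and 4 KO UMIs, and Camk4 in NK cells 37 and 14. Camkk2 passed in TAM and in cMono in all 17 alternatives, at -1.14 to -0.96 and -1.38 to -0.94. The log2 interaction of Camkk2 stayed below 0 and did not pass in any, at -0.47 to -0.09. Camk1 in cMono passed only with clusters in place of gates (log2 difference 0.89, adjusted p = 0.0288), where 659 of 7560 genes passed, and the cause was not tested. No called value changed sign. Of 1224 between-class values, 28 newly passed and 28 no longer passed, 14 of the latter with limma weighting all cells equally, which also ended the calls of Camk2n1, Pptc7 and Rnf34. Leaving out a WT mouse ended between-class calls of Camk1 in B cells (M2), Camkk1 in cMono and T cells (M2, M3) and NK cells (M1, M2, M3), Prkab1 in TAM (M1, M3) and cDC2 (M2, M4), and Prkag1 in T cells (M3). Over all genes DESeq2 called 659 over all cells and 640 in TAM, where edgeR called 181 and 210. With TMM factors the calls in TAM split 109 higher and 82 lower, against 82 and 128 with total UMIs, and the median of all genes in microglia moved by 0.11 log2 units. No paired analysis was possible because the hashtag numbers are only names of mice and pair no WT with a KO animal. The few UMIs of ncMono, cDC1 and mature dendritic cells limit what could be seen there.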
